A study of Mus musculus with 2 samples.

Results

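The genes described here encode the ligands, receptors, Smad proteins, secreted binders and Id target proteins of the BMP, activin and TGF-beta families. They were chosen by gene symbol alone, with no measured value in the rule, and 63 of the 43346 Ensembl genes in the deposited tables met it. All 63 are protein-coding and carry a name in the GENCODE M21 annotation of GRCm38 (mm10), the assembly of the files. Values come from total RNA-seq of newborn kidney in mice of the strain B6NCrl, taken on postnatal day 0. Each of the 2 libraries held both kidneys of a single pup, the pups shared a mother, and the labels name no allele, treatment or sex, so there is 1 group with n = 2 littermates. With no second group, genes were compared with each other inside the tissue, and the gap between the pups served as the error. No p-value is given, since a single group offers no contrast to test.

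The libraries held 41584961 estimated read counts for pup 1 and 48823952 for pup 2. All 10 of 10 kidney markers, from nephron progenitors, stroma, podocytes, tubule segments, collecting duct and endothelium, reached 1 TPM in both pups. The same held for 5 of 5 liver genes, with Afp at 105 TPM in pup 1 and 95.3 in pup 2. Adrenal and gonad markers were below 1 TPM for most genes, and 1 of 7 and 1 of 5 reached that level. Of the heart, cartilage and blood cell markers, 1 of 3, 1 of 3 and 2 of 4 reached it. Among these, the cartilage gene Col2a1 stood at 13.7 and 11.8 TPM and the globin gene Hbb-bs at 1165 and 1204.

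Ligands of this superfamily are secreted as dimers that bring together type I and type II receptors, which are serine/threonine kinases at the cell surface. The type II receptor phosphorylates the type I receptor, which then phosphorylates receptor Smads. BMP-type signals run mainly through Smad1, Smad5 and Smad9, and activin- and TGF-beta-type signals through Smad2 and Smad3, and both join Smad4 to enter the nucleus. Secreted binders such as noggin, gremlin and follistatin keep ligands from their receptors, and Smad6 and Smad7 damp the signal inside the cell. In the developing kidney Bmp7 is known for keeping nephron progenitors in place and Bmp4 for shaping the ureter and its branching, and TGF-beta ligands are known for their part in fibrosis of the adult organ.

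Levels are given in the deposited TPM, which counts transcripts per length against a fixed library total, so that genes can be compared, and a gene was called detected where both pups reached 1 TPM. Among the 63 genes, 42 were detected, against a background of 61.5% of the 21474 named protein-coding genes. At 10 TPM or more in both pups stood 24 genes, against 39.4% of protein-coding genes, and at 100 TPM or more stood 4, against 6.8%. The median over the 63 genes was 5.94 TPM in pup 1 and 6.01 in pup 2, and over all protein-coding genes it was 4.81 and 4.62. The level of a gene in a whole kidney reflects both how many cells make its RNA and how much each makes, and these cannot be told apart here.

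Of the summed level of the 63 genes, 78.5% in pup 1 and 79.1% in pup 2 came from Fstl1, Id1, Id2 and Id3. These are the only members at 100 TPM or more in both pups. The highest of the ligands, receptors and Smads was Tgfbr2, at 31.9 and 32.5 TPM. Every member was detected among the TGF-beta ligands, the type II receptors, the inhibitory Smads and the Id targets.

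**Figure D1:**
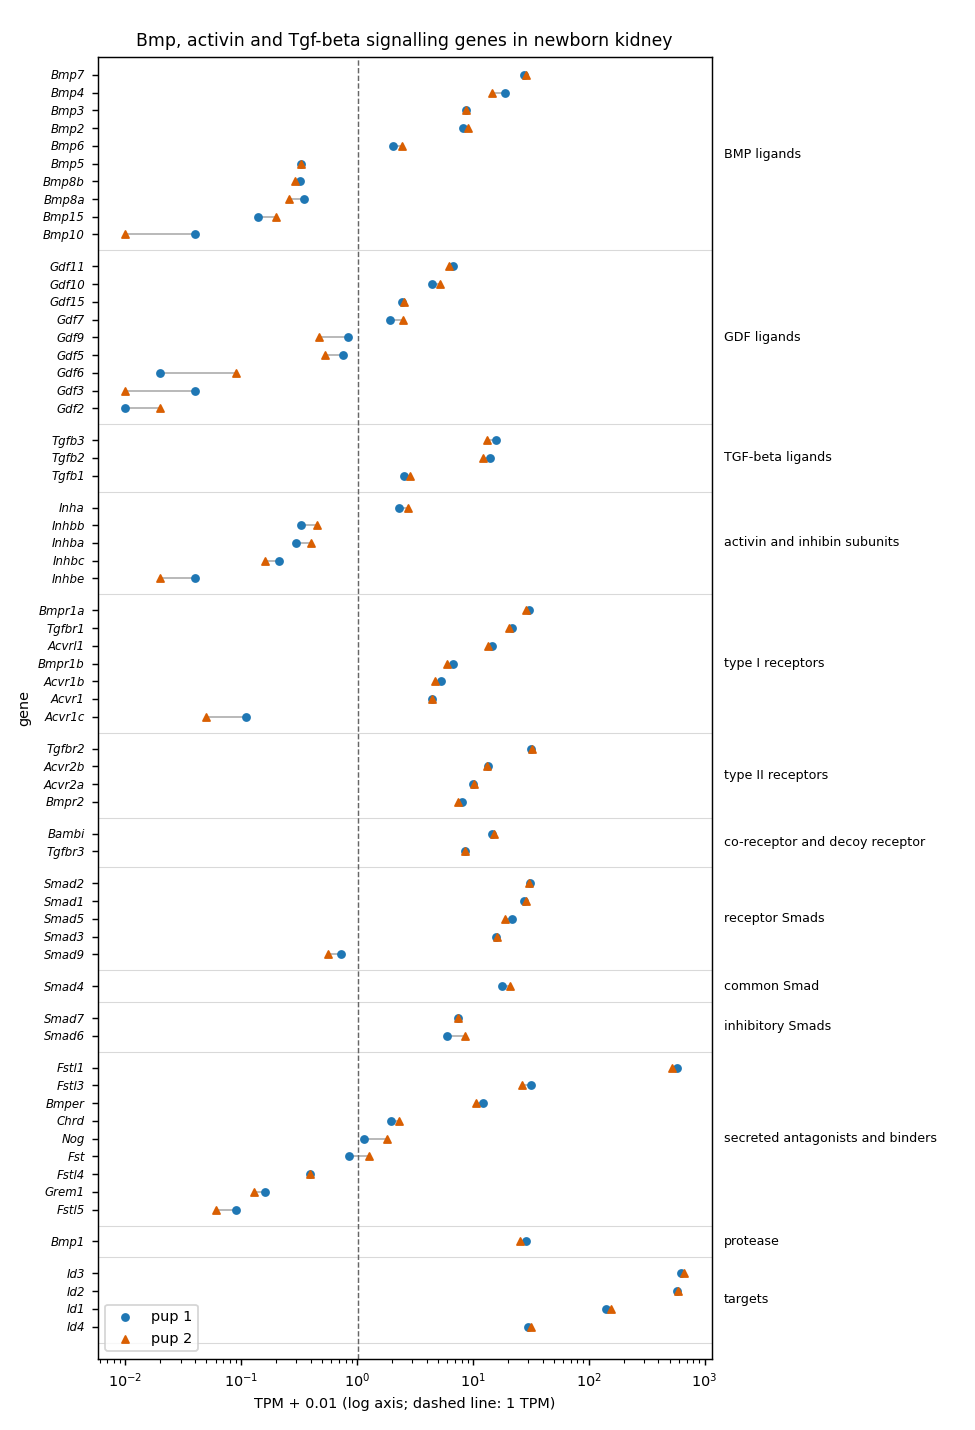
Level of 62 of the 63 genes in pup 1 (circles) and pup 2 (triangles), on a log axis of TPM + 0.01, grouped by role; the dashed line is 1 TPM. Points of the pups lie close together for most detected genes, and Id1, Id2, Id3 and Fstl1 lie far to the right of the ligands, receptors and Smads. Id4, at 30.02 and 31.6 TPM, lies beside the highest receptors and Smads.

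Among the 10 BMP ligands, 5 were detected, with a summed level of 66.7 TPM in pup 1 and 64.5 in pup 2. Bmp7 (chr2:172868012-172940321, minus strand) was the highest, at 27.7 TPM in pup 1 and 28.5 in pup 2, and made up 41.5% and 44.3% of that sum. Bmp4, at 18.9 and 14.7 TPM, came next and lay below Bmp7 in both pups. The difference of Bmp7 from Bmp4 was 0.72 ± 0.27 (SD, n = 2) on the log2(TPM + 1) scale, the scale of all level differences below, and the values of the pair did not overlap. The pups disagreed on its size, since Bmp7 stood 1.47 times as high as Bmp4 in pup 1 and 1.94 times in pup 2.

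Bmp2 and Bmp3 followed at almost the same level. Bmp3, which opposes other BMPs in bone, measured 8.76 and 8.74 TPM, and Bmp2, a broad inducer of bone and of epithelial change, measured 8.18 and 9.04, so the order of the pair is not set beyond the spread. Bmp4 exceeded Bmp2 by 0.88 ± 0.33 with no overlap, though the pair overlapped on counts not divided by length. Bmp6, best known as the iron-sensing signal of the liver, was detected at 2.04 and 2.41 TPM.

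The remaining BMP ligands were below 1 TPM in both pups. Bmp5 measured 0.32 TPM in each pup, and Bmp8a and Bmp8b, a pair of related genes, ranged from 0.25 to 0.34 with overlapping values. Bmp15, known from the oocyte, and Bmp10, known from the heart, stood at 0.19 TPM or less, and Bmp10 was listed at 0 in pup 2.

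Growth differentiation factors were low, with 4 of 9 detected and summed levels of 17.1 and 17.4 TPM. Gdf11, known for patterning along the body axis and for the onset of ureteric budding, led with 6.77 TPM in pup 1 and 6.15 in pup 2. Gdf10 measured 4.41 and 5.19 TPM and stayed below Gdf11 in both pups. Gdf15, a stress-induced cytokine, measured 2.45 and 2.53 TPM, and Gdf7 measured 1.91 and 2.47, which overlaps Gdf15.

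Gdf5, a joint-forming ligand, and the oocyte factor Gdf9 lay between 0.46 and 0.82 TPM. Gdf2, Gdf3 and Gdf6 stayed at or under 0.08 TPM. Mstn (myostatin), the closest relative of Gdf11 and not among the 63 genes, was listed at 0 in pup 1 and 0.04 TPM in pup 2, so the pair differed by far more than its spread.

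All 3 TGF-beta ligands were detected, and Tgfb1 was the lowest. Tgfb3 measured 15.9 and 13.3 TPM, Tgfb2 13.97 and 12.2, and their values overlapped. Tgfb1, the form best known from immune control and fibrosis, measured 2.54 and 2.85 TPM. It was below Tgfb2 by 1.93 ± 0.21 and below Tgfb3 by 2.07 ± 0.26, with no overlap. Tgfb1 thus made up 7.84% and 10.1% of the summed level of the 3 genes.

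The Tgfb2 level was split over several annotated transcripts, and not all are coding. The coding Tgfb2-201 held 31.5% and 31.1% of the gene's TPM, and the coding Tgfb2-206 held 20.9% and 25.9%. A pair of transcripts annotated as retaining an intron held most of the rest, Tgfb2-205 with 30.4% and 30.7% and Tgfb2-202 with 13.4% and 8.18%. Summed over coding transcripts alone, Tgfb2 measured 7.31 and 6.98 TPM. Counted on coding transcripts alone, an alternative added after the data were seen, Tgfb2 fell below Tgfb3 without overlap, by 0.93.

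Activin and inhibin subunits were the lowest group of ligands, with 1 of 5 detected. Inha, the alpha subunit that turns an activin beta chain into an inhibin, measured 2.30 and 2.77 TPM. The beta subunits that form activins were below 1 TPM, Inhba at 0.29 and 0.39 and Inhbb at 0.32 and 0.44, with overlapping values. Inhba was below Inha by 1.40 ± 0.06. Inhbc and Inhbe, subunits known mainly from liver, ranged from 0.01 to 0.20 TPM.

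Of the 7 type I receptors, 6 were detected. Bmpr1a (ALK3; chr14:34410734-34503341, minus strand), the broad BMP receptor, was the highest at 30.5 TPM in pup 1 and 28.5 in pup 2. Its close relative Bmpr1b measured 6.66 and 6.01 TPM, and Bmpr1a exceeded it by 2.06 ± 0.03, or 4.58 and 4.75 times. Acvr1 (ALK2), which also passes BMP signals, measured 4.45 and 4.39 TPM, 2.49 ± 0.05 below Bmpr1a.

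Among the type I receptors for TGF-beta and activin, Tgfbr1 (ALK5) led with 21.6 and 20.6 TPM. The activin receptor Acvr1b (ALK4) measured 5.25 and 4.67 TPM, and stood 1.89 below Tgfbr1 on the log2 scale. Acvr1c (ALK7) was at 0.10 and 0.04 TPM, from 28 and 12 counts. Acvrl1 (ALK1), a receptor of endothelial cells for Bmp9 (Gdf2) and Bmp10, measured 14.5 and 13.4 TPM, while Gdf2 and Bmp10 themselves did not exceed 0.03 TPM in either pup.

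All 4 type II receptors were detected. Tgfbr2 (chr9:116084293-116175360, minus strand), the TGF-beta receptor, measured 31.9 and 32.5 TPM and made up 50.3% and 51.4% of the group's sum. It exceeded its type I partner Tgfbr1 by 0.59 ± 0.06 with no overlap. The activin receptor Acvr2b measured 13.4 and 13.2 TPM and its relative Acvr2a 10.06 and 10.2. Bmpr2, the BMP type II receptor, was lowest at 8.08 and 7.41 TPM, below Acvr2a by 0.35 ± 0.09. On counts not divided by length, both orders, of Acvr2a with Acvr2b and of Bmpr2 with Acvr2a, were the reverse. In TPM the 4 genes had the same order in both pups, and no neighbours in that order overlapped.

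Transcripts of 3 members differ by whole codons and were each estimated at 20% or more of the gene in both pups. Their extra coding bases are printed because they are the part of the RNA by which the isoforms differ. Coordinates are GRCm38, bases are in GENCODE M21 order 5′ to 3′ on the coding strand, and no base is set in capitals.
Tgfb2-206 (chr1:186690721-186690804, minus strand): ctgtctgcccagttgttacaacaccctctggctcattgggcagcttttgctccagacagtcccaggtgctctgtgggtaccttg
Tgfbr2-202 (chr9:116158271-116158345, minus strand): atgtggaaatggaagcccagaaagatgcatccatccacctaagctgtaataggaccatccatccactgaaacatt
Acvr2b-202 (chr9:119428201-119428224, plus strand): tcacgtacgagccacccccgacag

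The Tgfb2 stretch is 84 bases long and adds 28 codons to the coding sequence. The Tgfbr2 stretch is 75 bases long and adds 25 codons, in the part of the receptor known to lie outside the cell. The Acvr2b stretch is 24 bases long and adds 8 codons. Without these stretches the coding sequences measure 1242, 1701 and 1584 bases, and with them 1326, 1776 and 1608.

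Both forms of each receptor were present in each pup. Tgfbr2-202, with the stretch, held 45.1% and 49.5% of the gene's TPM, and Tgfbr2-201, without it, held 54.9% and 50.5%. Acvr2b-202, with the stretch, held 53.5% and 62.4%, and Acvr2b-201 held 46.5% and 37.6%. Tgfbr2-201, Tgfbr2-202 and Acvr2b-202 differ in length between the deposited models and M21 (4710 against 3476, 4785 against 8092 and 1696 against 2093 nt). The shares and the TPM of these genes, and their orders with other genes, therefore rest on the older models. Such shares come from a model that divides reads among forms and were not checked on splice junctions here.

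**Figure D2:**
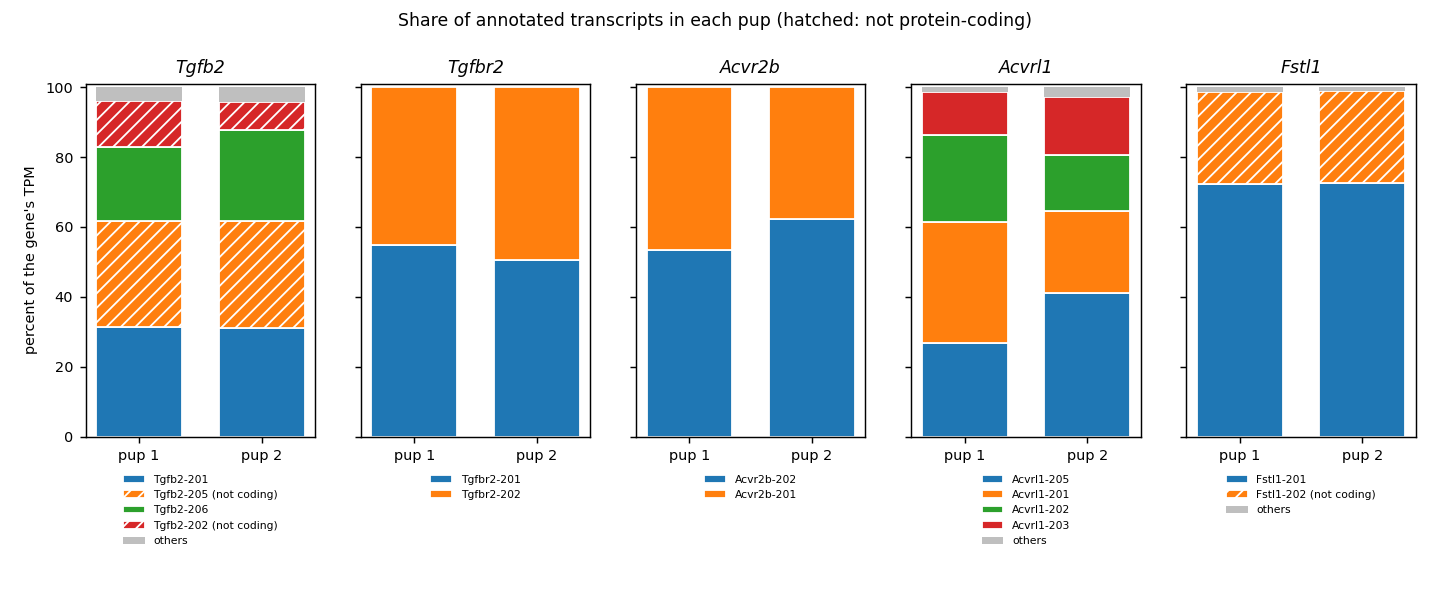
Share of each gene's TPM given to its annotated transcripts in pup 1 and pup 2, in percent, for Tgfb2, Tgfbr2, Acvr2b, Acvrl1 and Fstl1. Hatched parts are transcripts not annotated as coding. Grey parts pool the transcripts of lowest share and are not hatched, whether coding or not. In Tgfb2 and Fstl1 the pooled transcripts are not coding. Tgfbr2 and Acvr2b divide between 2 coding forms, and 26.2% and 26.4% of Fstl1 fall to a transcript that is not coding.

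Most detected members were otherwise dominated by a single form. Of the 42 detected genes, 15 have 1 annotated transcript in the tables and 27 have several. A coding transcript led in all 27, a count for which no background was computed. The leading transcript held 80% or more of the TPM in 22, against 41.5% of detected protein-coding genes with several transcripts. That background counts leading transcripts of any type. Coding transcripts held under 80% of the TPM only in Tgfb2 and Fstl1, against a background of 27.1%. The leading transcript was the same in both pups for 26 of 27 genes, against 92.9%, the exception being Acvrl1, whose Acvrl1-201 held 34.5% and 23.2% and whose Acvrl1-205 held 26.9% and 41.2%. At least 2 coding transcripts reached 20% in both pups in 4 genes, Tgfb2, Tgfbr2, Acvr2b and Acvrl1, against 22.4%.

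Bambi, a receptor-like protein that lacks the kinase and acts as a decoy, measured 14.7 and 15.1 TPM. Tgfbr3 (betaglycan), the co-receptor that presents Tgfb2 and also binds inhibin, measured 8.52 and 8.59 TPM, and it lay 1.80 below Tgfbr2.

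Receptor Smads of both branches were detected, and Smad9 was the exception. On the activin and TGF-beta side, Smad2 measured 31.1 and 30.3 TPM and Smad3 15.8 and 16.0, a difference of 0.91 ± 0.03. The leading transcript Smad2-205 was taken as 2857 nt long, against 8089 nt in M21. The TPM of Smad2 and its order with other Smads therefore rest on the older model. On the BMP side, Smad1 measured 27.4 and 28.7 TPM and Smad5 21.7 and 19.1, a difference of 0.44 ± 0.17 with no overlap. On counts not divided by length, Smad1 lay below Smad5 instead, and Smad2 and Smad3 overlapped. Smad9 (Smad8) measured 0.71 and 0.55 TPM, so Smad5 stood 30.5 and 34.7 times as high. Smad9 made up 0.735% and 0.581% of the summed level of the 5 receptor Smads.

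Smad4, the shared partner, measured 17.8 TPM in pup 1 and 20.9 in pup 2, below Smad2 by 0.65 ± 0.18. The inhibitory Smads were lower than Smad4. Smad7, which blocks both branches, measured 7.41 and 7.38 TPM. Smad6, which acts mainly on the BMP branch, measured 5.94 and 8.47, so it was the lower of the pair in pup 1 and the higher in pup 2.

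Promoter sequence was looked at because Smad complexes are known to bind the motifs GGCGCC and GTCTAGAC and the shorter CAGAC. The RefSeq table (GRCm38.p6) gave 52 promoters of 300 bases for 44 of the 63 genes. GGCGCC, searched on both strands, was present in 12 of 52, or 23.1%, against 11.9% of all 32851 promoters in the table. Its carriers were Gdf10, Smad5 with 2 promoters, Smad9, Chrd, Grem1, Id2, Id4, Acvr1b, Bmpr1a, Tgfbr1 and Bmpr2. The 2 Smad5 windows overlap for most of their length, so they hold largely the same bases. The share over all promoters was not matched for base content. CAGAC or its reverse GTCTG was present in 48.1% against 49.6%, and the TATA sequence TATAAA in 15.4% against 13.6%. GTCTAGAC was present in 1 promoter, that of Smad6, against 0.213% of all. A match describes the letters in the window and says nothing of binding in these kidneys.

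Parts of a pair of these windows are shown, 126 bases for Id4 and 68 for Smad6. Id4 is a BMP target and Smad6 a feedback inhibitor of the pathway, and both were picked after the motif search. Capitals mark GGCGCC in Id4 and GTCTAGAC in Smad6. The Id4 motif begins 148 bases before the RefSeq start site, and M21 places the start of Id4 another 112 bases on. The Smad6 motif spans the start site, with 4 bases on either side.
Id4 (chr13:48260908-48261033, plus strand): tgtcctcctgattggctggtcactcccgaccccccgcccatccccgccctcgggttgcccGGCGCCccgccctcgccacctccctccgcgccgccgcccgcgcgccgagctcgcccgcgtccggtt
Smad6 (chr9:64022056-64022123, minus strand): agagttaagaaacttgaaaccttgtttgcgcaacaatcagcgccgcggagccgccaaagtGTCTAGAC

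Of the 10 secreted antagonists and binders, 5 were detected. Fstl1 (chr16:37776873-37836514, plus strand), a follistatin-like glycoprotein that binds BMPs and is made by mesenchymal cells, measured 576 TPM in pup 1 and 527 in pup 2. It made up 92.1% and 92.4% of the group's sum. Its coding transcript Fstl1-201 stood at 417 and 382 TPM, and the processed transcript Fstl1-202 at 151 and 139. On coding transcripts alone, Fstl1 therefore remained far above every other of these 10 genes.

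Fstl3, an activin binder like follistatin, measured 32.0 and 26.3 TPM, and Fstl1 exceeded it by 4.20 ± 0.10. In M21, 47.3% of its exonic bases also lie in exons of Prss57 on the other strand, and Prss57 was listed at 0.05 and 0.03 TPM. Bmper, which can both block and aid BMPs outside the cell, measured 12.2 and 10.7 TPM. Chordin (Chrd), which holds BMPs away from receptors, measured 1.95 and 2.28 TPM and lay 2.00 ± 0.23 below Bmper.

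The classical antagonists were scarce. Noggin (Nog) measured 1.14 TPM in pup 1 and 1.82 in pup 2, from 54 and 106 counts. Follistatin (Fst), the main activin trap, measured 0.84 and 1.27 TPM, below 1 TPM in pup 1 and above it in pup 2. Gremlin 1 (Grem1), known for its role in starting the ureteric bud by holding back Bmp4, measured 0.15 and 0.12 TPM, from 18 and 17 counts.

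Bmp4 stood 126.1 and 122.5 times as high as Grem1, or 3.96 ± 0.22 on the log2(TPM + 1) scale. Fstl4 was at 0.38 TPM in each pup and Fstl5 at 0.08 and 0.05. Bmp1, a protease that cleaves procollagen and chordin and is no BMP ligand despite its name, measured 28.9 and 25.7 TPM.

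The Id genes encode proteins that pair with basic helix-loop-helix factors and keep them off DNA, and they are well-known direct targets of BMP signalling in many cells. All 4 were detected, with summed levels of 1377 and 1436 TPM. Id3 (chr4:136143497-136145755, plus strand) measured 630.01 TPM in pup 1 and 663 in pup 2, the highest of the 63 genes. Id2 (chr12:25093799-25097140, minus strand) measured 577 and 587 TPM.

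Id1 (chr2:152736251-152737410, plus strand) measured 139.7 and 155 TPM, below Id3 by 2.13 ± 0.05 and below Id2 by 1.98 ± 0.09. Id4 was lowest with 30.02 and 31.6 TPM, 4.20 ± 0.03 below Id2. The order Id3, Id2, Id1, Id4 was the same in both pups with no overlap. Id genes also respond to other signals, and no pathway activity was measured here.

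**Figure D3:**
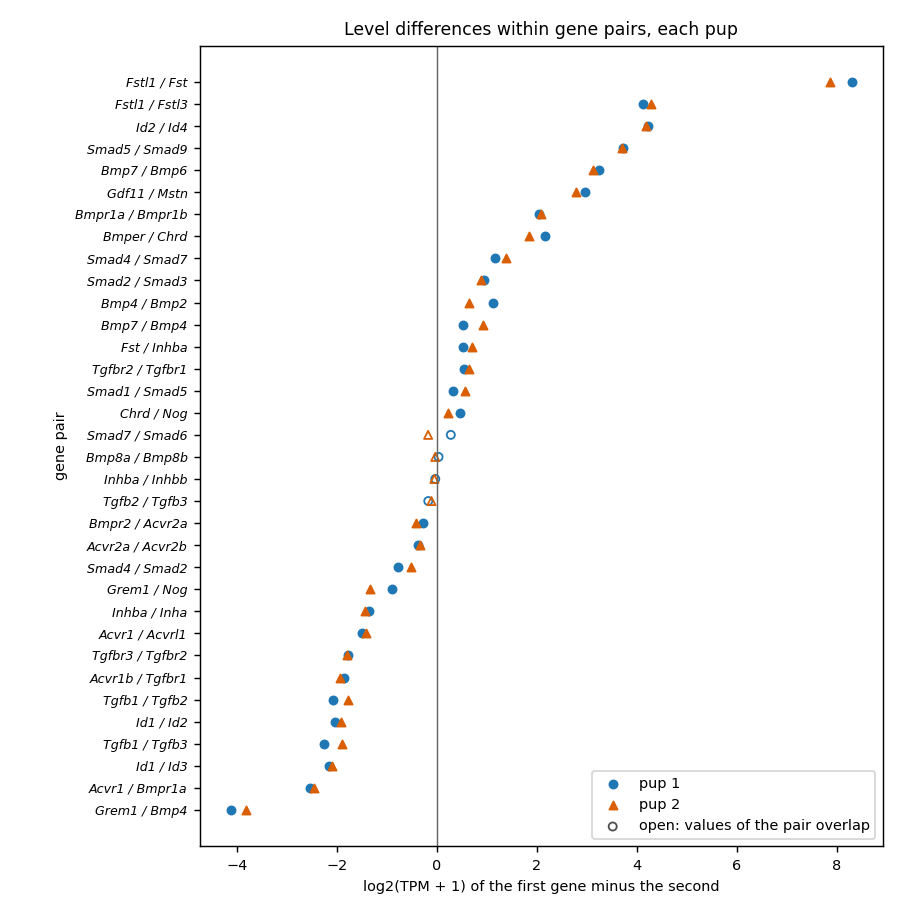
Difference of log2(TPM + 1) within 34 of the 35 gene pairs, first gene minus second, in pup 1 (circles) and pup 2 (triangles); open symbols mark the 4 pairs whose values overlap over the pups. The pairs run from Grem1 far below Bmp4 to Fstl1 far above Fst.

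Pairs of related or interacting genes were compared by whether both pups of 1 gene lay above both pups of the other. This held for 31 of 35 pairs, against a background of 95.8% of all pairs of detected protein-coding genes, so separation by itself sets no pair apart. That background holds detected genes only, while some of the 35 pairs hold a gene below 1 TPM. The 4 that overlapped were Bmp8a with Bmp8b, Tgfb2 with Tgfb3, Inhba with Inhbb, and Smad7 with Smad6. On counts not divided by length, the last 3 of these pairs no longer overlapped. Of 50 neighbours in the order of levels within a role group, 11 overlapped. Such neighbours are close in level by construction, so the 95.8% is no background for this count, and none was computed.

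By position, 4 pairs of members lie within 100 kb of each other on the same strand. Acvrl1 and Acvr1b are 28.7 kb apart, with the 14.5 and 13.4 TPM of Acvrl1 against 5.25 and 4.67 of Acvr1b. Acvr1c and Acvr1 are 30.7 kb apart, and Acvr1 stood at 4.45 and 4.39 TPM beside 0.10 and 0.04 of Acvr1c. Gdf10 and Gdf2 are 3.06 kb apart, with Gdf10 detected and Gdf2 at 0 and 0.01 TPM. Inhbe and Inhbc, 1.91 kb apart, were both below 1 TPM. In each of the 4 pairs the values of the genes did not overlap over the pups. The same held for 95.8% of all pairs of detected protein-coding genes, so this separation is no result about position. That background holds detected genes only.

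Other genes of the pathway, outside the symbol rule, were taken from a list of 50, of which 35 were detected, against 61.5% of named protein-coding genes. The same background applies to the counts by class, which are small. Processing and latency genes were present for 11 of 13, led by Itgav, the alpha chain of integrins that release latent TGF-beta, at 135 and 131 TPM. Ltbp4, a latent TGF-beta binding protein, followed at 35.8 and 32.8 TPM. Among further antagonists and binders 8 of 10 were detected. They were led by Sostdc1, a BMP antagonist of the distal tubule, at 320.2 and 306 TPM, and Twsg1 at 98.8 and 88.1. Both exceeded every member in the same role except Fstl1.

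Intracellular modulators were detected for 9 of 9 genes, with Tgif1, a Smad co-repressor, at 65.1 and 59.9 TPM and its relative Tgif2 at 33.5 and 30.6. Co-receptors were detected for 3 of 6, with endoglin (Eng), the partner of Acvrl1 in endothelium, at 63.0 and 57.2 TPM and Rgmb at 10.5 and 12.2. Known targets other than the Id genes were detected for 3 of 6. Tgfbi stood at 109.9 and 93.2 TPM and Ccn2 at 11.7 and 14.6. Ligands and receptors outside the rule were detected for 1 of 6, the exception being Lefty1 at 1.29 and 1.16 TPM.

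The pups were compared on a second scale, the log2 ratio of pup 2 to pup 1 in TMM-scaled CPM, for genes with 50 or more counts in either pup. With 1 animal on each side this is a description, and intervals are exact binomial at 95% and cover counting error only. Of the 47 members that passed the count minimum, 0 passed 2-fold, against 0.587% of 15150 genes, and 3 passed 1.5-fold, against 2.54%. With a count minimum of 10, 2 members of few counts, Gdf6 and Acvr1c, passed 2-fold. The median size of the ratio was 0.13 over these members and 0.10 over all genes tested. Pup 2 was higher for 32 of 47 members, against 50.6% of genes, and 27 had an interval that left out 0, against 40.4%.

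The 3 members past 1.5-fold are all inhibitors of the pathway, and all were higher in pup 2. Smad6 had 506 and 888 counts and a log2 ratio of 0.60 (interval 0.44 to 0.76). Noggin had 54 and 106 counts and a ratio of 0.72 (0.28 to 1.26), and follistatin 56 and 104 counts and a ratio of 0.64 (0.20 to 1.18). The interval of Smad6 is the narrowest of the 3, as its counts are the highest. With 1 CPM added in place of 0.1, none of the 3 passed 1.5-fold, with ratios of 0.48 for noggin, 0.43 for follistatin and 0.56 for Smad6, and scaling by library totals put Smad6 at 0.58, also short of it. These genes were singled out by their ratios, so they are given as values and not as a result about inhibitors.

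Id genes were slightly higher in pup 2, with Id1 at 0.23 (0.17 to 0.30), Id4 at 0.16, Id3 at 0.16 (0.13 to 0.19) and Id2 at 0.11. Ligands whose interval left out 0 lay on both sides. Higher in pup 2 were Gdf7 at 0.44, Gdf10 at 0.32, Bmp6 at 0.32, Bmp2 at 0.23 and Bmp7 at 0.16. Lower were Bmp4, at -0.31 (-0.45 to -0.19), and Tgfb3, at -0.17. Smad4 was higher in pup 2 by 0.34 (0.26 to 0.43). Fstl1, the member with the most counts, was at -0.04.

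Cell markers differed between the same libraries. The nephron progenitor gene Six2 was higher in pup 2 by 0.80, at 9.21 and 15.1 TPM, and the stromal gene Foxd1 by 0.59, at 3.75 and 5.33. The proximal tubule gene Slc34a1 was lower in pup 2, at -0.41, with 287 and 203 TPM. The podocyte gene Wt1 was at 0.09 and the collecting duct gene Aqp2 at 0.31. Of the 5 liver genes, Alb was at -1.11, with 5.65 and 2.42 TPM, Apoa1 at -0.23, Serpina1a at -0.06, Afp at -0.05 and Ttr at 0.23. The part of these marker differences in the ratios of Smad6, noggin, follistatin, Bmp4 and the Id genes was not tested.

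**Figure D4:**
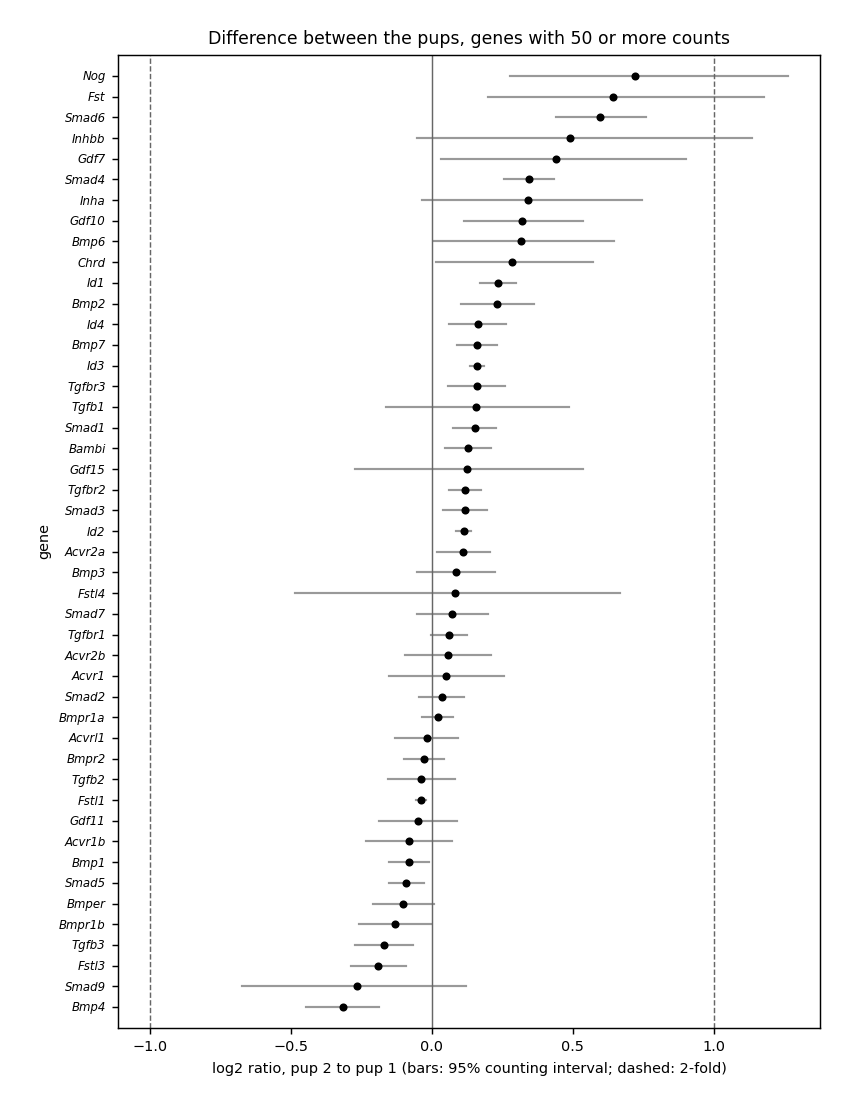
Log2 ratio of pup 2 to pup 1 for 46 of the 47 members with 50 or more counts in either pup, with 95% counting intervals; dashed lines mark 2-fold. Every point lies inside the dashed lines, with noggin, follistatin and Smad6 at the top and Bmp4 at the bottom.

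Some members share sequence with other genes, which limits their values. Windows of 50 bases were matched on both strands, and no share over all genes was computed. Of the 63 genes, 30 share no such window with another gene's transcripts, and 5 share over 10% of their windows. These are Fstl3 (46.2%, with Prss57), Bmp5 (46.0%, with Gm26903), Gdf5 (39.2%, with Gm15557), Inhbc (12.2%, with Gm47200) and Bmp8b (10.3%, with Gm17244 and Bmp8a). Apart from Bmp8a, each of these partners overlaps exons of the member on the opposite strand. Their windows thus come from the same place in the genome and are part of the overlaps described next. Bmp8a matches Bmp8b on the same strand. Bmp8a shares 8.74%, so the low values of Bmp8a and Bmp8b are uncertain as separate values.

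Exons of 16 members overlap those of a gene on the opposite strand in M21, and no share over all genes was computed for this count. The strand setting of the counting is not given in the sources used here, so reads of such partners may not have been told apart. Bmp6 overlaps Txndc5, which stood at 215 and 203 TPM, over 5.74% of its exonic bases. Acvr2a overlaps Orc4, at 63.7 and 61.5 TPM, over 7.84%. Bmp8b, with 22.9 and 21.5 counts, overlaps Ppie, at 68.2 and 61.4 TPM, over 3.43%. The partners of Bmp5 and Gdf5 were listed at 0 in both pups.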

How the data were processed

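Total RNA longer than 200 nt, 10 ng with spike-ins, was sequenced from both kidneys of each of 2 littermates. Per library, the authors deposited tables of genes and of transcripts. These hold, per the file headers, an expected count (an estimated read number, not normalized), TPM and FPKM, with posterior mean versions, and the percent of a gene's TPM per transcript. The text deposited with the libraries names mm10 and GENCODE M4. The aligner, software versions and counting strand: not given in the sources used here.

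Genes were matched by Ensembl identifier to GENCODE M21, which named 42462. Features that are not genes held 0.000767% and 0.000983% of counts and were left out. The limit allowed by a gene at 0 is 3 counts, which is 0.0721 CPM in pup 1 and 0.0614 in pup 2. Every gene meeting the symbol rule is counted, and all but 1, which is not reported here, are named or drawn, and of other pathway genes mainly the 2 highest of each class. The members, lists and pairs were chosen with earlier results of these data known. The isoform shares of 80% and 20%, the printed sequences and the 100 kb distance were chosen after the data were seen.

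Gene pairs were compared as log2(TPM + 1). Between pups, expected counts were rounded, scaled by TMM (edgeR 4.0.16, R 4.3.3) and compared as log2 of CPM + 0.1; intervals carry no added 0.1. The biological coefficient of variation, fitted over the 17606 genes that passed the edgeR expression filter, was 7.34%. Library totals in that fit exclude features that are not genes. Only the log2 ratio between pups and its call at 2-fold were tested on simulated counts, with planted changes larger than that fold. The other steps were not tested in this way. Alternatives included DESeq2 1.42.0 size factors, other filters and pseudocounts, posterior means and either pup alone. Other steps ran in Python 3.11.15 (NumPy 2.4.6, pandas 2.3.3; SciPy 1.17.1 for intervals and Matplotlib 3.10.9 for plots).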

Additional observations from a re-analysis of the deposited data

How the results depend on the processing

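The number of detected members was 42, and 43 and 42 with either pup alone, 46 at 0.5 TPM, 39 at 2 TPM and 60 with no filter on low values. The median over the 63 genes, 5.98 TPM as a mean of the pups, was 6.12 with posterior mean TPM and 6.49 without mitochondrial genes. Members past 2-fold between pups numbered 0, but 2 with a count minimum of 10 and 2 with no filter (Gdf6 and Acvr1c), and 3 at 1.5-fold. On CPM, which ignores gene length, differences changed sign, to 1.35 for Acvr2a against Acvr2b, 0.77 for Bmpr2 against Acvr2a, -0.61 for Smad1 against Smad5 and -0.049 for Smad2 against Smad3. Smad2 with Smad3, and Bmp4 with Bmp2, overlapped there, while Tgfb2 with Tgfb3 (-0.43), Inhba with Inhbb (-0.63) and Smad7 with Smad6 (0.56) no longer did. That scale leaves out length by construction. Members whose leading transcript held 80% or more numbered 22, and 20 with posterior mean TPM, 19 in pup 2 alone and 22 in pup 1 alone. No paired analysis was possible because there is only 1 group. Depth limits the members with few counts, and 2 littermates leave out variation between litters.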
